A study of Rattus norvegicus with 15 samples.

Results

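RNA of kidney cortex was compared between rats that lack a noncoding interval beside the gene Npr3 and wild-type rats. The comparison rests on the 7 libraries that the labels call kidney cortex, 3 wild-type (genotype WT) and 4 deletion (genotype KO), of 15 libraries in the series; the other 8 are of mesentery artery. All came from the Dahl salt-sensitive (SS) rat, an inbred strain that develops high blood pressure and renal damage on a salty diet, so wild-type and deletion rats share that background. The deleted interval of 30.4 kb lies on chromosome 2 (60825801 to 60856216 on rn7) and is the rat counterpart of a human linkage block, and the study asked which genes its loss influences in each tissue. The sample titles call every rat male; age, diet and whether the deletion line descends from 1 founder are not given in the sources used here. No label says that each library is a separate animal, so p-values measure the spread between libraries, which may be technical. Of 34357 genes with an identifier, 15444 had a mean of at least 0.5 FPKM (fragments scaled by gene length and library size) over the 7 kidneys and were tested. Kctd4 was the gene just inside this limit, at 0.500063 FPKM, and LOC120096307 just outside, at 0.499827.

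Npr3 encodes the natriuretic peptide receptor that binds the peptides and takes them into the cell for breakdown. The peptides act through the receptors Npr1 and Npr2, which make cyclic GMP, relax vessels and raise sodium excretion by the kidney. The cortex is mostly proximal tubule, which reabsorbs most filtered solute, with glomeruli, distal segments, collecting ducts and vessels between. In salt-sensitive rats the tubules are a known site of sodium retention and of injury.

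The kidneys carried the markers of their label. Slc34a1, through which proximal tubules take up phosphate, ranged from 892 to 1187 FPKM over the 7 kidneys and reached 1.06 FPKM at most in the arteries. Lrp2, the endocytic receptor megalin of the same segment, stood at 387 to 764 FPKM, and Umod, the uromodulin of the loop of Henle, at 626 to 1126. Npr3 stood at 4.39 to 10.7 FPKM in kidney and at 19.1 to 42.6 in artery. Markers of neighbouring tissues were low but not all near 0. The aldosterone synthase gene Cyp11b2 of the adrenal cortex reached 0.0495 FPKM at most, while Cyp11a1, an enzyme of steroid synthesis, stood at 1.37 to 2.49. Of fat cell genes, Lep reached 0.0374 FPKM at most, and Adipoq, the adiponectin gene, stood at 2.23 to 4.07. The 11 listed fat cell genes, tested or not, summed to 30.6 to 36.8 FPKM in wild-type and 26.5 to 38.0 FPKM in deletion kidneys. The 11 of the adrenal cortex summed to 2.88 to 6.42 and 3.68 to 5.9, and the 7 urothelial genes of the table reached 0.69 at most.

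Of the 7 kidneys, 2 stood apart from the rest. The library labelled wild-type 3 went against its label: Xist, transcribed from the inactive X chromosome of females, reached 81.1 FPKM in it against 0.124 to 0.432 in the other kidneys, and the Y-linked Eif2s3y, Kdm5d, Uty and Ddx3 were listed at 0. It also held 129 genes more than 2-fold above and 93 genes more than 2-fold below the range of the other 6 kidneys, where no other library had over 15 in either direction. Slc22a7, an organic anion transporter, reached 69.8 FPKM in wild-type 3 against 1.3 to 5.32 elsewhere, and Cyp2c11, a steroid hydroxylase of males, was listed at 0 against 7.94 to 27.0. Deletion 2 had the lowest proximal tubule and the highest podocyte, intercalated and principal cell values, and Rn7sl1, a small cytoplasmic RNA, took 22% of its summed FPKM against 8.23% to 15.1% in the others. FPKM summed to between 376270 and 459847 per kidney, and read depth is unknown. Each count below was therefore also taken without wild-type 3, which leaves 2 wild-type kidneys, and where it matters without wild-type 3 and deletion 2.

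**Figure D1:**
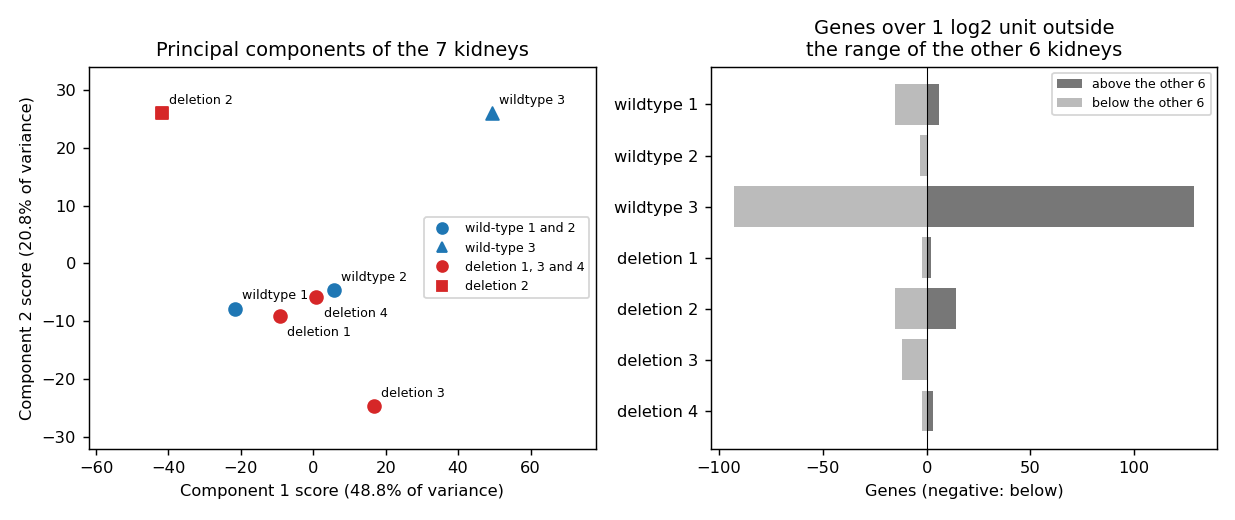
Left, scores of the 7 kidneys on the first 2 principal components of log2(FPKM + 0.5), which hold 48.8% and 20.8% of the variance. Right, the number of genes of each library that lie more than 1 log2 unit above (dark bars) or below (pale bars, drawn as negative) the range of the other 6. Wild-type 3 and deletion 2 lie at opposite ends of component 1, and wild-type 3 has the longest bars, 129 and 93 genes.

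No gene passed the test for the deletion in kidney. Limma, on log2(FPKM + 0.5) with Benjamini-Hochberg adjustment, called 0 of 15444 genes (0%) at an adjusted p under 0.05, and the smallest adjusted p was 0.999. Before adjustment 217 genes (1.41%) had a p under 0.05, of which 145 (0.939%) were higher and 72 (0.466%) lower in deletion kidneys. The levels of the groups did not overlap in 394 genes (2.55%), 238 higher (1.54%) and 156 lower (1.01%). Without wild-type 3 limma again called 0 genes (0%), while 155 (1%) had an unadjusted p under 0.05, of which 97 (0.628%) lay higher and 58 (0.376%) lower in deletion kidneys, and 61 genes were under 0.05 in both fits. With fewer libraries more genes separate: the levels of 967 genes (6.26%) did not overlap, 501 higher (3.24%) and 466 lower (3.02%). The median standard error of a log2 fold change was 0.20, so for a typical gene a difference of that size lay within the error.

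The values as a whole leaned upward, by an amount that varied with the libraries and the scaling. The log2 fold change was above 0 in 60.2% of genes with all 7 kidneys (median 0.04), in 50.4% without wild-type 3 (median 0.0016) and in 52.9% without deletion 2 (median 0.01001). With median-of-ratios scaling the share above 0 was 43.4% and the median -0.03. Genes with a log2 fold change beyond 1 in either direction numbered 51 with all kidneys and 22 without wild-type 3.

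**Figure D2:**
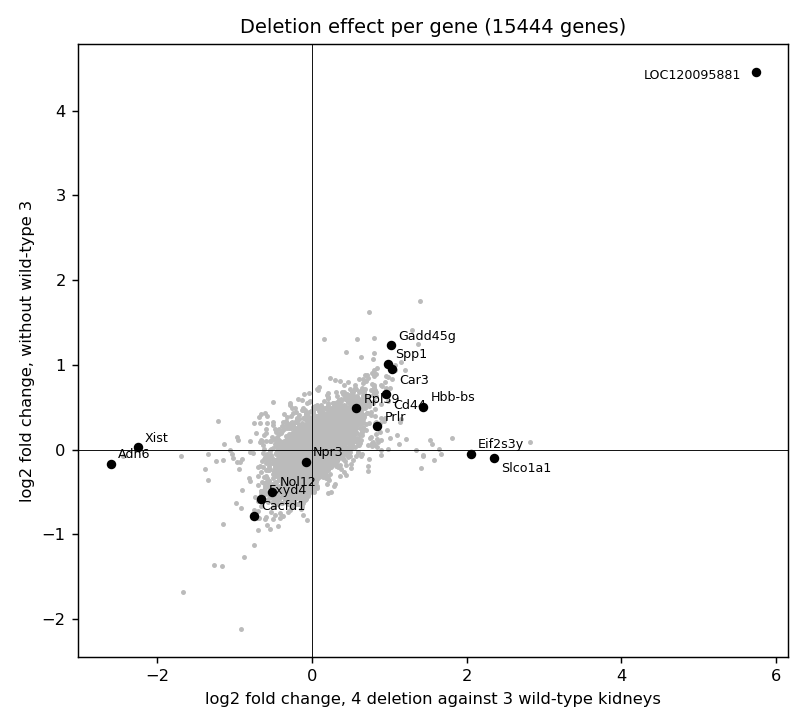
Each point is 1 of 15444 genes, with the log2 fold change of deletion against wild-type over all 7 kidneys on the x axis and without wild-type 3 on the y axis; black points carry names. Xist, Adh6, Slco1a1 and Eif2s3y lie far from 0 on the x axis and near 0 on the y axis, while Gadd45g, Car3 and Spp1 lie near 1 on both.

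Npr3, the gene nearest the interval, overlapped between genotypes. It lies 9.27 kb from the interval's edge, on chromosome 2 (60865483 to 60933432 on rn7, minus strand). Its levels were 8.52, 5.01 and 5.69 FPKM in the wild-type and 5.05, 10.7, 4.39 and 4.91 FPKM in the deletion kidneys. Deletion 2 was the highest of all 7, and the other deletion kidneys lay at or below the lower wild-type values. The means were 6.41 ± 1.86 FPKM (SD, n = 3) in wild-type and 6.27 ± 2.995 FPKM (SD, n = 4) in deletion kidneys. Limma gave a ratio of 0.944 (95% confidence interval 0.598 to 1.49, adjusted p = 0.999), and the exact two-sided permutation test of the FPKM means p = 0.971 over 35 arrangements, which allow 0.0286 at the smallest. A ratio of 0.5 or of 2 lies outside this interval. Without deletion 2 the log2 fold change was -0.36, and without wild-type 1 it was 0.13.

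None of the genes around the interval passed. Of 24 listed, Npr3 among them, 18 were tested, 10 above 0 and 8 below, the median being 0.03 on the log2 scale beside 0.04 over all genes, and 6 of 18 were above 0 without wild-type 3. Brix1, a factor of ribosome assembly 1364 kb from the interval, was the only neighbour of the 18 tested whose groups did not overlap, beside 2.55% of all genes. It stood at 5.78, 6.18 and 6.36 FPKM in wild-type and 7.16, 7.70, 7.43 and 7.28 FPKM in deletion kidneys (log2 fold change 0.26, SE 0.12, limma unadjusted p = 0.0552). Drosha, which cuts microRNA precursors, had 0.25 (SE 0.14), and Sub1, the next gene beyond Npr3, -0.14 (SE 0.14). Prlr, the prolactin receptor, stood at 44.9, 35.6 and 11.9 FPKM in wild-type and 65.6, 29.7, 61.3 and 46.2 FPKM in deletion kidneys; wild-type 3 was the lowest, and the log2 fold change of 0.84 (SE 0.43) was 0.27 without it. Amacr, a peroxisomal racemase, showed the reverse, with 209 FPKM in wild-type 3 and 70.3 to 130 in the other 6, and its log2 fold change of -0.42 was -0.12 without wild-type 3. No gene with an identifier overlaps the interval, and the deposited values therefore hold no check of the genotype from its own transcripts.

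In the natriuretic peptide and cyclic GMP pathway no gene passed either. Of 22 listed genes 17 were tested, limma called 0 at an adjusted p under 0.05, and 0 were under 0.05 unadjusted, beside 1.41% of all genes. Their median log2 fold change was 0.05, and -0.08 without wild-type 3. Npr1, the receptor of atrial natriuretic peptide, stood at 4.66, 4.80 and 4.49 FPKM in wild-type and 4.10, 6.27, 3.72 and 4.10 FPKM in deletion kidneys (log2 fold change -0.05, 95% confidence interval -0.47 to 0.36). Npr2, the receptor of C-type natriuretic peptide, had -0.03 (95% confidence interval -0.45 to 0.39). Among the phosphodiesterases that break down cyclic GMP, Pde5a had the pathway's smallest p, with 2.90, 2.09 and 3.13 FPKM in wild-type and 3.73, 3.68, 3.48 and 2.72 FPKM in deletion kidneys (log2 fold change 0.29, SE 0.19, limma unadjusted p = 0.157). With array weights Pde5a was called, at 0.55 (limma adjusted p = 0.0491). These weighted wild-type 2, its lowest kidney, at 18.2 and the others at 0.268 to 1.86. Mme, the protease neprilysin that degrades the peptides, had 0.13 (SE 0.30), and Ide, another protease of peptide breakdown, 0.05 (SE 0.11).

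Genes that set blood pressure and salt handling held none that passed. In the angiotensin and aldosterone list, 15 tested genes had a median log2 fold change of 0.02. Of these, 0 were called and 0 were under 0.05 unadjusted, beside 1.41% of all genes unadjusted. Ace, which makes angiotensin II, stood at 0.950, 0.535 and 1.20 FPKM in wild-type and 2.17, 1.48, 1.27 and 1.10 FPKM in deletion kidneys (log2 fold change 0.52, SE 0.26), and had 0.68 without wild-type 3 (limma unadjusted p = 0.038). With array weights Ace was called, at 0.98 (limma adjusted p = 0.0448), but wild-type 2, its lowest kidney, was weighted at 18.2 and the others at 0.268 to 1.86. Agt, the angiotensinogen gene, stood at 0.765 FPKM in wild-type 3 and 3.30 to 18.7 in the rest, and its log2 fold change of 0.98 was 0.01 without that library. Sgk1, the kinase that raises sodium channel activity under aldosterone, had a log2 fold change of -0.00093 with all kidneys; wild-type 3 held 27.0 FPKM, wild-type 1 and 2 held 70.2 and 69.7, and the deletion kidneys 41.0 to 58.9, so that without wild-type 3 it had -0.45 (limma unadjusted p = 0.0301).

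The 29 tested genes of tubular sodium, potassium and water transport had a median of 0.01, 15 above 0, with 0 under 0.05 unadjusted beside 1.41% of all genes. Fxyd4, which raises the affinity of the sodium pump in collecting ducts and stands in the principal cell list, was among the genes with the smallest p of the whole table. It stood at 13.2, 10.1 and 13.3 FPKM in wild-type and 10.2, 7.89, 6.33 and 6.15 FPKM in deletion kidneys (log2 fold change -0.65, SE 0.19, limma unadjusted p = 0.00638, adjusted p = 0.999). Wild-type 2 and deletion 1 met in the middle, and the other deletion kidneys were lower. The sodium channel subunit Scnn1a did not share this pattern, with 17.3 FPKM in deletion 2 and 7.90 to 11.9 in the other 6.

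Single genes with the smallest p were of both low and high level. Of the 30 with the smallest p, 20 were higher and 10 lower in deletion kidneys, the groups did not overlap in 27, and 14 had a mean under 2 FPKM; these genes were chosen by p, so their separation is a description. In 8 of the 30, among them LOC120093316, Car3, Snord41 and Trnaa-agc-18, 1 group mean was under the limit of 0.5 FPKM. These were tested only because the other group was higher, so a difference in that direction had to appear. All 30 kept their direction without wild-type 3. LOC120093316, an uncharacterised gene on chromosome 6 (91265608 to 91265811), came first, with a wild-type level under the limit of 0.5 FPKM. It stood at 0.200, 0.0931 and 0 FPKM in wild-type and 1.71, 0.876, 0.8295 and 0.838 FPKM in deletion kidneys (log2 fold change 1.37, SE 0.25, limma unadjusted p = 0.00034, adjusted p = 0.999). LOC120100461 and LOC120103572, also uncharacterised, had log2 fold changes of 1.07 and -0.99. The remaining 6 of the 30 with such placeholder symbols are counted here and not named.

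Gadd45g, a stress-induced protein of growth arrest, combined a moderate level with separate groups. It stood at 15.8, 8.02 and 17.8 FPKM in wild-type and 32.7, 29.4, 30.2 and 18.7 FPKM in deletion kidneys (log2 fold change 1.02, SE 0.27, limma unadjusted p = 0.0043), and only deletion 4 came near the wild-type range. Car3, a carbonic anhydrase that passed the limit through the deletion group, stood at 0.112, 0.538 and 0.167 FPKM in wild-type and 0.924, 1.33, 1.26 and 0.728 FPKM in deletion kidneys. Nol12, a nucleolar protein of ribosomal RNA processing, had close values within each group, 4.82 to 5.18 FPKM in wild-type and 3.25 to 3.66 FPKM in deletion kidneys (log2 fold change -0.51, SE 0.14). Cacfd1, a membrane protein, stood at 15.1 to 16.6 FPKM in wild-type kidneys; deletion 1 held 15.01 FPKM, and deletion 2, 3 and 4 held 8.51, 6.998 and 7.88.

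The other named genes of this group were of several functions. Higher in deletion kidneys were Hacd2 of fatty acid elongation (log2 fold change 0.69), the ribosomal protein gene Rpl39 (0.57), Hmmr of the mitotic spindle (0.57), Plgrkt, a plasminogen receptor (0.47), the chemokine Cxcl11 (0.48), the nucleosome-binding Hmgn3 (0.41) and Prr13 (0.35). Lower were Nubpl, which helps assemble respiratory complex I (-0.55), Cmc4 of the mitochondrial intermembrane space (-0.42) and the epithelial transcription factor Grhl1 (-0.70). Small RNA genes were Snord41 (1.30), Trnaa-agc-18 (1.20) and Trnaw-cca-3 (-0.75), all under 2.5 FPKM in every kidney. Transfer RNA, small nucleolar RNA, globin and ribosomal protein genes have near-identical copies, so their values depend on how fragments were shared between copies. Of the 30 genes, 27 were also tested in artery and 14 of those had the same sign there.

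**Figure D3:**
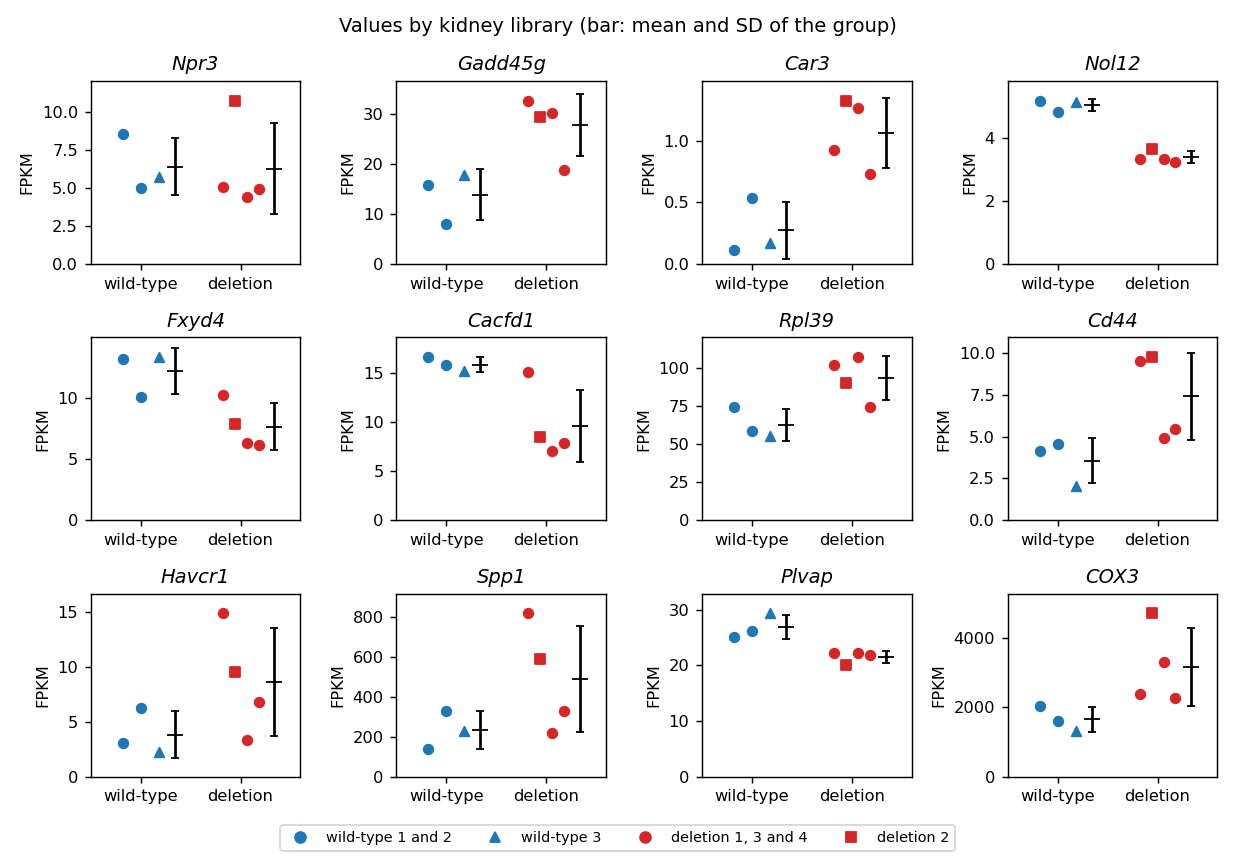
FPKM of 12 genes in each kidney, wild-type left and deletion right, with bars at the group mean and its SD; triangles mark wild-type 3 and squares deletion 2. Groups are apart for Gadd45g, Car3, Nol12, Cd44, Plvap, COX3 and, by a narrow margin, Rpl39 and Cacfd1, and mixed for Npr3, Fxyd4, Havcr1 and Spp1.

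The same group held 2 microRNA genes, Mirlet7b and Mir374b, both lower in the deletion kidneys. Their mature sequences are printed so that the genes can be identified; they come from RefSeq (GRCr8), and capitals mark the seed, bases 2 to 8, which pairs with target messages.
let-7b-5p: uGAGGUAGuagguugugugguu
let-7b-3p: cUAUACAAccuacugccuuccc
miR-374-5p: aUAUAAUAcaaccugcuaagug
miR-374-3p: cUUAGCACguuguauuauuauu
No 2 of these share a seed. Mirlet7b (chromosome 7, 116804186 to 116804270 on rn7, 85 bp) stood at 1.34, 1.70 and 1.13 FPKM in wild-type and 0.927, 0.614, 0.491 and 0.616 FPKM in deletion kidneys (log2 fold change -0.70, SE 0.21). Mir374b (chromosome X, 68591732 to 68591799, 68 bp) stood at 3.94, 1.85 and 2.16 FPKM in wild-type and 0.669, 0.897, 0.264 and 1.48 FPKM in deletion kidneys (log2 fold change -1.27, SE 0.34). Neither passed (limma adjusted p = 0.999 for both). The libraries were of total RNA, so these values do not tell the mature RNA from a longer transcript across the hairpin.

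Without wild-type 3 other genes led. Of the 10 with the smallest p in that fit, 4 were also among the 30 above. Bcl7c, a subunit of the SWI/SNF remodelling complex, stood at 12.5 and 9.52 FPKM in wild-type 1 and 2, 19.8 in wild-type 3, and 15.3 to 17.6 FPKM in deletion kidneys, so that its log2 fold change was 0.27 with all kidneys and 0.55 without wild-type 3. Cmc1, an assembly factor of cytochrome oxidase, had 0.63 and 1.09, Fam104b 0.37 and 0.60, Rbis of ribosome assembly 0.20 and 0.53, the mitochondrial leucine transfer RNA Trnl1 0.80 and 1.31, and Snord48 -0.51 and -0.82. In Trnl1, Cmc1, Fam104b and Rbis as well, wild-type 3 was the highest wild-type kidney.

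Across 37 gene lists of pathways and cell types, 606 members were tested and limma called 0 at an adjusted p under 0.05, with or without wild-type 3. Unadjusted, 12 members (1.98%) were under 0.05 beside 1.41% of all genes, and the groups did not overlap in 16 members (2.64%) beside 2.55%. Both shares are near those of all genes. With array weights, which weighted wild-type 2 at 18.2 and the other kidneys at 0.268 to 1.86, 9 of the 606 members were called, beside 282 of all 15444 genes. The 9 were Ace, Pde5a, Cyp2j4 and Ppp1r1b, higher, and Fabp4, Gldc, Gzmb, Mvk and Per1, lower. In whole tissue, fewer cells of a type and less RNA per cell cannot be told apart.

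With all 7 kidneys, tubule injury and repair was the list with the most members under 0.05 unadjusted. Of 25 listed genes 24 were tested, and 20 were above 0 (median log2 fold change 0.34) beside 60.2% of all genes. Unadjusted, 4 were under 0.05 beside 1.41% of all genes. Without wild-type 3 the median was 0.30 with 22 above 0, but only 1 was under 0.05 unadjusted, beside 1% of all genes. The interferon list had more, 3 of 28 tested. Without deletion 1 the median was 0.19. Cd44, the hyaluronan receptor that appears on injured tubules, stood at 4.13, 4.54 and 2.05 FPKM in wild-type and 9.51, 9.77, 4.90 and 5.44 FPKM in deletion kidneys (log2 fold change 0.96, SE 0.31, limma unadjusted p = 0.0112, adjusted p = 0.999). Havcr1, which encodes kidney injury molecule 1, stood at 3.04, 6.21 and 2.23 FPKM in wild-type and 14.8, 9.49, 3.30 and 6.76 FPKM in deletion kidneys. Lcn2, the secreted lipocalin that marks tubular damage, stood at 2.45, 2.13 and 1.31 FPKM in wild-type and 7.29, 8.95, 2.02 and 2.72 FPKM in deletion kidneys. In all 3 genes deletion 1 and deletion 2 were the highest, and deletion 3 lay near the wild-type kidneys. Spp1, the matrix protein osteopontin, followed that order, with 138, 329.7 and 231 FPKM in wild-type and 818, 587, 220.3 and 331 FPKM in deletion kidneys (log2 fold change 0.98, SE 0.46). Timp1, an inhibitor of matrix proteases, had 0.65 (SE 0.27). Over the whole list the mean log2 value was 2.97 to 3.35 in wild-type kidneys, 3.92 and 3.78 in deletion 1 and 2, and 3.17 and 3.34 in deletion 3 and 4. Macrophage and T and NK cell lists shared only part of the injury list's order. Their mean log2 values in deletion 2 were the highest of all 7 (2.98 and 0.974). Wild-type 2 came next (2.76 and 0.918), just above deletion 1 (2.74 and 0.917), and deletion 3 was below wild-type 1 in both. Without wild-type 3 the median log2 fold change of the macrophage list went from 0.22 to -0.06, and that of the T and NK list from 0.28 to 0.14. The part of these cells in the injury result was not tested. In those lists Ccr2, a chemokine receptor of monocytes, had a log2 fold change of 0.72 (SE 0.33), Aif1 of macrophages -0.45 (SE 0.22), and Cd3e and Cd8a of T cells 0.51 (SE 0.26) and 0.35 (SE 0.21). In artery 10 of 20 injury genes tested were above 0, and the kidney minus artery difference of Cd44 was 1.02 (SE 0.35, limma adjusted p = 0.894).

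With all 7 kidneys, nuclear and mitochondrial genes of the respiratory chain had medians of opposite sign, which did not hold without wild-type 3 and deletion 2. Of 37 nuclear genes of oxidative phosphorylation, 35 were below 0 (median log2 fold change -0.17), and limma called 0. Without wild-type 3 the median was -0.04 with 22 below 0, and without wild-type 3 and deletion 2 it was 0.10 with 29 of 37 above 0. Averaged on the log2 scale, the list was highest in wild-type 3 (7.42) and lowest in deletion 2 (6.53). Ndufs4 of complex I stood at 56.1, 62.7 and 67.7 FPKM in wild-type and 52.1, 42.9, 48.5 and 59.5 FPKM in deletion kidneys (log2 fold change -0.30, SE 0.15). Of the 13 proteins encoded by mitochondrial DNA, 10 were above 0 with a median of 0.35. It was 0.57 without wild-type 3, 0.13 without deletion 2, and 0.35 without both, with 9 of 13 above 0, where the nuclear median was also above 0. Their summed FPKM was 17963 to 18547 in wild-type and 19894 to 35369 in deletion kidneys, deletion 2 being the highest, and their share of the library sum was 3.91% to 4.93% and 5.06% to 8.28%. COX3, a subunit of cytochrome oxidase, stood at 2043, 1598 and 1319.6 FPKM in wild-type and 2379.9, 4719, 3317 and 2286 FPKM in deletion kidneys (log2 fold change 0.90, SE 0.36, limma unadjusted p = 0.0306, adjusted p = 0.999), with no overlap. CYTB of complex III had 0.72 (SE 0.33), also with no overlap, while ND5 and ND4L of complex I had -0.08 and -0.06. The groups did not overlap in 2 of the 13, beside 2.55% of all genes. In artery 5 of the 13 were above 0, with a median of -0.15.

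**Figure D4:**
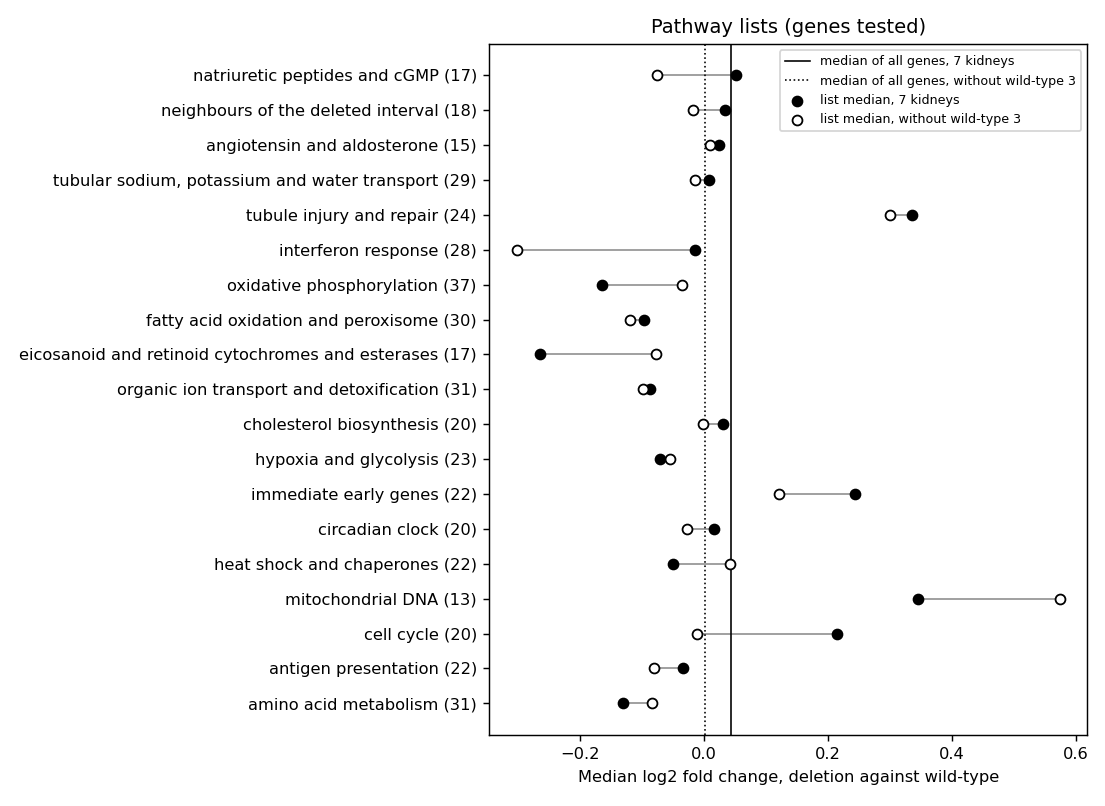
Median log2 fold change (deletion against wild-type, x axis) of each pathway list, with all 7 kidneys (filled) and without wild-type 3 (open); the number of genes tested stands beside each name, and vertical lines mark the median of all genes. Tubule injury and mitochondrial DNA lie to the right with both sets of libraries, while interferon response and cell cycle move left without wild-type 3.

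Interferon-response genes, the antiviral programme, depended on wild-type 3. With all kidneys 13 of 28 tested genes were above 0 and the median was -0.01; without wild-type 3 only 2 were above 0 and the median was -0.30. Averaged on the log2 scale, the list stood at 3.07, 2.66 and 1.99 in wild-type 1, 2 and 3, and at 2.92, 2.76, 2.17 and 2.32 in deletion 1 to 4, so the groups overlapped either way. Irf7, the transcription factor of the interferon loop, stood at 21.7, 15.7 and 6.67 FPKM in wild-type and 16.6, 11.7, 8.70 and 10.6 FPKM in deletion kidneys. Its log2 fold change was -0.18, and -0.65 without wild-type 3 (limma unadjusted p = 0.0237). Ifi27 and Oas1a were also under 0.05 unadjusted without that library, at -0.60 and -0.64. That made 3 of 28, beside 1% of all genes in that fit. In artery 28 of 29 tested members were below 0 with a median of -0.58, and the interaction of tissue and genotype called 0 genes of 14072 (0%; 671, or 4.77%, under 0.05 unadjusted).

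Other programmes had values that in part changed with the libraries kept. Of 22 immediate early genes 20 were above 0 (median 0.24), and 20 also without wild-type 3 (median 0.12). Egr1, an early growth response factor, was the only 1 of the 22 without overlap, beside 2.55% of all genes. It stood at 1.10, 1.38 and 1.01 FPKM in wild-type and 2.08, 2.99, 1.44 and 1.63 FPKM in deletion kidneys (log2 fold change 0.58, SE 0.24). Of 20 cell cycle genes 17 were above 0, with a median of 0.21 that was -0.01 without wild-type 3. For fatty acid oxidation the median was -0.10, with 10 of 30 above 0. Without wild-type 3 it was -0.12, with 2 of 30 above 0. The list's mean log2 value was 5.75 to 5.81 in wild-type and 5.25 to 5.86 in deletion kidneys, with deletion 2 the lowest. Acaa2, the last enzyme of the mitochondrial cycle, stood at 148, 196 and 267 FPKM in wild-type and 134, 90.4, 157 and 159 FPKM in deletion kidneys. Ppargc1a, a coactivator of mitochondrial genes in the same list, pointed the other way. It was the only 1 of the 30 without overlap, beside 2.55% of all genes. Its levels were 22.6, 23.4 and 23.4 FPKM in wild-type and 28.5, 30.05, 25.4 and 24.0 FPKM in deletion kidneys (log2 fold change 0.21, SE 0.12, limma unadjusted p = 0.101). Amino acid metabolism (-0.13), organic ion transport (-0.09) and eicosanoid and retinoid cytochromes (-0.27) were also below 0, and each was above 0 without wild-type 3 and deletion 2, at 0.09, 0.02 and 0.07. Cholesterol synthesis (0.03), circadian clock (0.02), antigen presentation (-0.03), heat shock (-0.05) and hypoxia and glycolysis (-0.07) had medians within 0.1 of 0. In cholesterol synthesis the groups did not overlap in 3 of 20 genes tested, beside 2.55% of all genes. They were Sqle, the squalene epoxidase (log2 fold change 0.39, SE 0.18), Nsdhl of the later steps (0.36, SE 0.18) and Mvk, the mevalonate kinase (-0.28, SE 0.15). Per1, a repressor of the clock, had -0.26 (SE 0.16), and -0.42 without wild-type 3 (limma unadjusted p = 0.0199). Cyclin Ccnb2, the only 1 of the 20 cell cycle genes without overlap, stood at 1.02, 1.08 and 0.729 FPKM in wild-type and 1.29, 1.82, 1.39 and 1.26 FPKM in deletion kidneys (log2 fold change 0.43, SE 0.20). In the eicosanoid list Cyp2j4, an arachidonic acid epoxygenase, had 0.60 (SE 0.27) and Cyp4a1, a fatty acid hydroxylase, -0.35 (SE 0.18). Akr1c1, a steroid reductase of the sex-biased list, stood at 108 to 129.9 FPKM in wild-type and 51.4 to 94.7 FPKM in deletion kidneys, wild-type 3 being the highest (log2 fold change -0.63, limma unadjusted p = 0.0186).

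Of the cell type lists, those of fat cells and of B and plasma cells had mean levels that did not overlap between genotypes. On the log2 scale the fat cell mean of 5 genes was 2.35 to 2.396 in wild-type and 2.05 to 2.33 in deletion kidneys. The B and plasma cell mean, of Pou2af1 and Jchain only, was 0.147 to 0.383 and 0.443 to 0.814. Neither gene passed (log2 fold changes 0.34 and 0.29), and the groups of each overlapped. Summed FPKM over all listed genes overlapped between genotypes for both lists. In wild-type and deletion kidneys it was 30.6 to 36.8 and 26.5 to 38.0 for fat cells, and 2.53 to 3.48 and 2.87 to 5.04 for B and plasma cells. In the other cell types described, single kidneys stood out. The proximal tubule list (25 genes) had a mean log2 value of 7.73 to 7.95 in wild-type and 7.88, 7.20, 8.07 and 7.93 in deletion 1 to 4, with deletion 2 the lowest; its median log2 fold change of -0.13 was 0.11 without wild-type 3 and deletion 2. Intercalated cells had 3.92 to 4.55 in the other 6 and 4.98 in deletion 2, and podocytes 3.06 to 3.58 and 4.01. Foxi1, the factor that specifies intercalated cells, stood at 4.80 to 7.63 FPKM in 6 kidneys and 13.5 in deletion 2. Smooth muscle and mesangium (0.06), loop of Henle (0.05), principal cells (0.01), fibroblasts (-0.04) and the late proximal tubule (-0.20) had medians that without both libraries were -0.31, -0.12, -0.17, -0.24 and 0.24. In the endothelial list (median -0.10, 4 of 15 above 0), Plvap, a protein of fenestral diaphragms, stood at 25.1, 26.2 and 29.3 FPKM in wild-type and 22.2, 20.0, 22.2 and 21.8 FPKM in deletion kidneys (log2 fold change -0.31, SE 0.11, limma unadjusted p = 0.0202, adjusted p = 0.999). Plvap was the only 1 of the 15 with no overlap, beside 2.55% of all genes. The mean of the erythrocyte list was lowest in wild-type 3, with the globin gene Hbb-bs at 17.7 FPKM there and 93.9 to 241 elsewhere, and the list's median of 0.41 was -0.03 without that library. Of 5 fat cell genes tested, 2 were under 0.05 unadjusted beside 1.41% of all genes, the fatty acid binding Fabp4 at -0.92 and Cidea of lipid droplets at -0.51. Without wild-type 3, 0 of the 5 were under 0.05 unadjusted beside 1% of all genes, with Fabp4 at -0.68 and Cidea at -0.44. Another lipid droplet gene, Cidec, had 0.51, and Adipoq and Lpl had 0.03 and -0.0039.

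**Figure D5:**
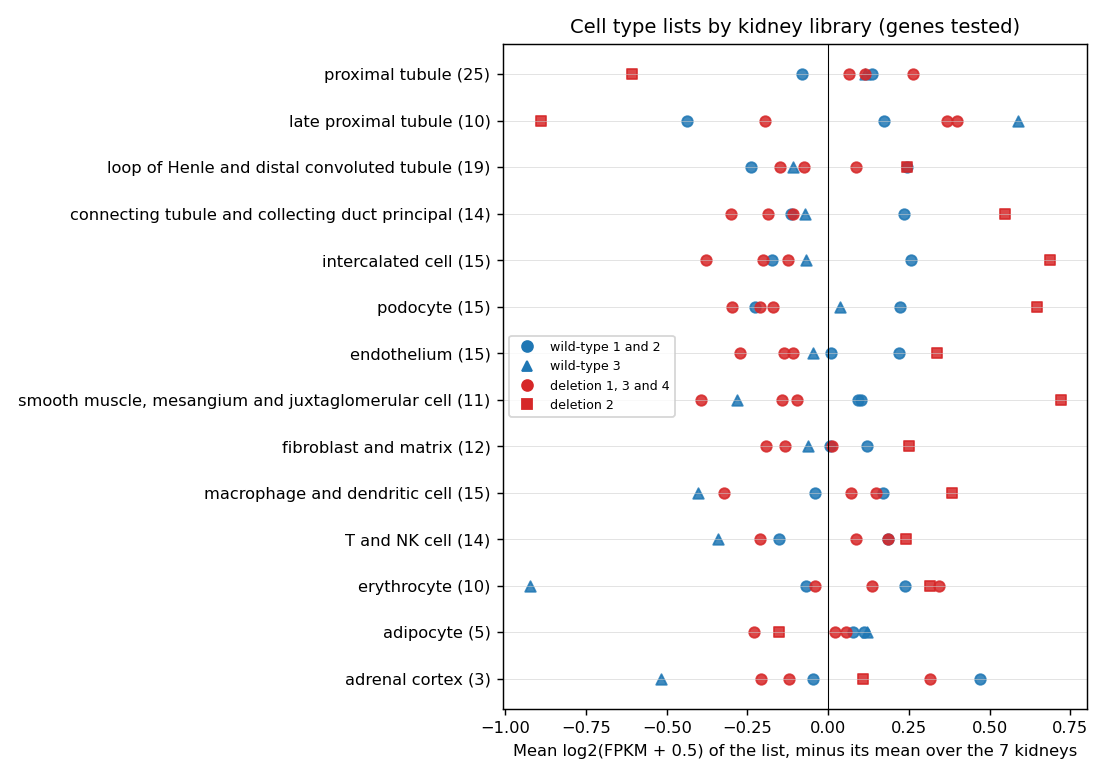
Mean log2(FPKM + 0.5) of each cell type list in each kidney, relative to its mean over the 7 kidneys (x axis); the number of genes tested stands beside each name. Deletion 2 (square) is lowest for both proximal tubule lists and highest for intercalated, podocyte and smooth muscle lists, and wild-type 3 (triangle) is lowest for erythrocytes.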

How the data were processed

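Total RNA was sequenced per library. The authors deposited FPKM values, 1 column per library; per the submitters' processing notes, the build was rn7 and the tools included DESeq2 1.46.0, HISAT2 2.2.1 and Trim Galore 0.6.2, with no role stated, and the tool and strand setting behind the FPKM are not given in the sources used here. FPKM are not counts, so no counting interval is given. Groups come from the labels. Rows without an identifier (6337) were left out, and 1 column of no stated sample was not used. Genes averaging 0.5 FPKM or more were tested on log2(FPKM + 0.5), two-sided, with limma 3.58.1 in R 4.3.3 (trend and robust moderation), Benjamini-Hochberg adjusted over all genes tested. Fold changes are on that scale and understate those of low genes. Wild-type 3 was kept as labelled. The script was tested on simulated data. Genes named are from Npr3 and its neighbours, markers, the 30 smallest p (10 without wild-type 3) and, per list, the 2 members of smallest p, with genes by which wild-type 3 stands apart; Npr1, Npr2, Mme, Lpl, Cidec, Mvk, Gldc, Gzmb, Ide, Sgk1, Drosha, Havcr1, Lcn2, Spp1, Irf7, Oas1a, ND5, ND4L, Adipoq, LOC120095881 and LOC120095551 were named after their values were seen. The members and lists were chosen with earlier results of these data known. The alternatives tried were a filter at 1 FPKM and none, 2 scalings, pseudocounts of 0.1 and 1, moderation without the robust option, array weights, a replicate block, 1 fit over both tissues, a fold of 1.5 and leaving out libraries; leaving out wild-type 3 with deletion 2 was chosen after seeing the data. Figures used matplotlib 3.10.9 in Python 3.11.15.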

Additional observations from a re-analysis of the deposited data

Results flagged for a closer look

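In 104 named genes and 36 lists, each group of 4 deletion kidneys was searched for a library far from the other 3; chance gives about 1 in 20. There were 12 such values, 10 of them in deletion 2. Deletion 2 was high for Npr3 (10.7 FPKM, others 4.39 to 5.05), Foxi1 (13.5 FPKM) and the steroid enzyme gene Cyp11a1 (2.49 FPKM). It was low for Trnaw-cca-3 (0.327 FPKM), the complex I gene Ndufs3 (56.9 FPKM), Ankrd37 (2.97 FPKM) and the translation factor gene Eif2s3 (25.7 FPKM). Its mean log2 value was high for the podocyte list (4.01) and low for oxidative phosphorylation (6.53) and amino acid metabolism (5.94). LOC120093316 was high in deletion 1 (1.71 FPKM) and Hbb-bs in deletion 4 (241 FPKM).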

How the results depend on the processing

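The count of called genes was 0 under the alternatives run, with 3 exceptions: 282 with array weights (188 higher, 94 lower; wild-type 2 weighted 18.2 and the other kidneys 0.268 to 1.86), 1 with 1 fit over both tissues (LOC120093316, limma adjusted p = 0.0244) and 1 without wild-type 1 (LOC120095881). Unadjusted, the count was 544 without a filter, 4020 with array weights, 377 with 1 fit over both tissues, 446 without wild-type 3 and deletion 2, and 101 to 1056 leaving out single libraries (101 without deletion 1, 362 without deletion 3, 1056 without wild-type 1). With the replicate number as a block it was 460, with 0 called; same-numbered kidneys had deviations correlated at 0.08, -0.0079 and 0.27, deletion 4 has no partner, and the numbers were not taken as pairs. Of the 282 genes, of 15444 tested, 9 were list members, of 606 tested. The interaction had 0 calls under the pseudocounts, median-of-ratios scaling, the block and single libraries left out, and the lists 0 under a pseudocount of 1, that scaling, single libraries and both libraries left out.

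The log2 fold changes that turned direction were these. With array weights: Npr3 0.014, Amacr 0.0093, Slc5a1 0.42, Aqp6 0.051, Gucy1a2 -0.082, Ier3 -0.024, Fah 0.22 and Eif2s3 0.019. Without wild-type 3 and deletion 2: Amacr 0.067, Lrp2 0.0703, Pdzk1 0.11, Slc5a1 0.094, Scnn1a -0.016, Foxi1 -0.059, Vwf 0.072, Gucy1a2 -0.23, Adh1 0.011, Ldhb 0.11, Ankrd37 0.12 and Fah 0.13. Slc34a1 had -0.037 with median-of-ratios scaling and Aqp6 0.016 with quantile normalization. Leaving out single libraries, the ranges that crossed 0 were Npr3 -0.36 to 0.13 (highest without wild-type 1), Slc34a1 -0.046 (without wild-type 3) to 0.12, Umod -0.043 (without wild-type 2) to 0.25, Rbis -0.017 (without wild-type 1) to 0.53, Scnn1a -0.0066 and Foxi1 -0.034 (both without deletion 2) to 0.34 and 0.42, and, all at the wild-type 3 end, Aqp6 0.015 to -0.25, Cdkn1c 0.0102 to -0.42, Hsd3b1 -0.12 to 0.67 and Gucy1a2 -0.0083 to 0.44. The causes were not tested.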

Other observations

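Of the genes tested, 8 were listed at 0 in at least 1 kidney and at 10 FPKM or more in another, and 5 of these were at 0 only in wild-type 3. In values without read counts an exact 0 can be a failed estimate. LOC120095881 (chromosome 12, 5984512 to 6001896 on rn7) had the largest kidney fold change of all genes tested. It stood at 103 FPKM in wild-type 1, was listed at 0 in wild-type 2 and 3, and stood at 95.04, 246, 142 and 188 FPKM in the deletion kidneys. In artery it was listed at 0 in 2 of 4 wild-type and 2 of 4 deletion libraries and stood at 124 to 258 FPKM in the others, so the split did not follow genotype there. LOC120095551 (chromosome 11, 66546912 to 66563094) was listed at 0 in wild-type 2 and deletion 2 and stood at 21.8 to 38.5 FPKM in the other kidneys. Akr1b7, an aldose reductase, reached 72.3 FPKM in wild-type 3 and 0.0427 at most in the other kidneys.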
